A study of Homo sapiens with 6 samples.

Results

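Cytarabine handling and drug efflux genes were examined as a set of 10 genes chosen by name: SLC29A1, SLC29A2, DCK, CDA, SAMHD1, NT5C2, ABCC1, ABCC4, ABCB1 and ABCG2. All 10 were among the 58233 Ensembl gene identifiers of the count table, and 8 passed the filter on low counts, against 13028 of all identifiers. The series compares 3 libraries of OCI-AML2, an established human acute myeloid leukemia cell line, labelled IKZF1-ko, from cells in which CRISPR had been aimed at IKZF1, the gene of the blood transcription factor Ikaros. The comparison is with 3 libraries of the same line labelled NT control, a non-targeting control, and both groups had the same medium. The labels name no drug exposure for these libraries, and whether the replicates were separate edited lines, cultures or extractions is unclear. The p-values here therefore reflect only how much these libraries vary, and that variation could be technical.

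Cytarabine is a deoxycytidine analogue and a mainstay of acute myeloid leukemia treatment. It enters cells mainly through the equilibrative nucleoside transporter ENT1, is trapped by phosphorylation that deoxycytidine kinase starts, and acts as a triphosphate built into DNA. Cytidine deaminase inactivates the nucleoside, nucleotidases remove the phosphate again, and SAMHD1 hydrolyses the triphosphate. Transporters of the ATP-binding cassette (ABC) family pump anthracyclines, nucleotide analogues and other drugs out of cells.

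Total counts were 15250588 to 18214328 in IKZF1-ko and 11300519 to 14983528 in NT control. The first principal component (67.6% of the variance) set IKZF1-ko replicate 1 and NT control replicate 2 apart from the other 4 libraries. In those libraries a list of 14 hypoxia and glycolysis genes (13 tested), led by LDHA and ENO1, was high (mean log2 level relative to the 6 libraries 0.63 and 0.54, against -0.40 to -0.20 in the others). A list of 12 proliferation genes, led by MCM3 and TOP2A, was low there (-0.52 and -0.43, against 0.13 to 0.34). IKZF1 mRNA was at 420.4, 426 and 436 CPM (the usual depth-normalized count unit, here with TMM scaling) in IKZF1-ko, against 331, 291 and 334 CPM in NT control. IKZF1 was thus higher in each library labelled IKZF1-ko than in any NT control library, with a log2 fold change of 0.43 (edgeR adjusted p = 1.23e-05 with the library-set term defined below, 0.606 on group alone). The genotype labels have no check from this gene, and directions below refer to libraries as labelled. Of 10 myeloid markers, 7 were tested, with PTPRC and CSF3R at the highest levels. CD34 had 0 counts, and ITGAM and KIT averaged 0.688 and 0.0946 CPM over the 6 libraries. The summed level of the markers was 1414 to 1525 CPM in IKZF1-ko and 1409 to 1553 CPM in NT control. With the library-set term 1 of the 7 rose, CSF3R (log2 fold change 0.17, edgeR adjusted p = 0.0371). LYZ fell (-0.36, adjusted p = 0.000123), and 13.5% of all tested genes were called in either direction. In the other 4 libraries alone both were called, beside 14.7% of all genes. With 1 surrogate variable in place of the set term LYZ was called (-0.29, edgeR adjusted p = 0.00108), beside 7.91%. CSF3R was not (0.035, adjusted p = 0.754). Of 13 markers of lymphoid, erythroid, epithelial and stromal cells, 8 had 0 counts in all 6 libraries, and their sum (74.8 to 92.1 CPM in IKZF1-ko, 84.5 to 94.95 CPM in NT control) was nearly all PECAM1.

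Upstream sequences are shown for the members that changed in the comparison and have a RefSeq promoter entry. Of the 10 genes, 8 had an entry, and ABCC1, which also changed, had none. Each line gives the 250 bases before the RefSeq start nearest to the GENCODE gene start (GRCh38.p14), 5′ to 3′ on the gene's strand. Capitals mark matches on either strand to GGGAA (core of the Ikaros binding motif), GGGCGG (GC box) or ACGTG (a core of the hypoxia response element). No other form of the hypoxia core was looked for.
SAMHD1, chr20:36951709-36951958, minus strand: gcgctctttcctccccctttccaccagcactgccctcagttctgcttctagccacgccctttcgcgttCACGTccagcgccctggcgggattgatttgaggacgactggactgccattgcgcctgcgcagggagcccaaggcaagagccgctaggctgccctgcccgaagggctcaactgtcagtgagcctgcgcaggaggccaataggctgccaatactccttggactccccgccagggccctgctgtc
ABCC4, chr13:95301452-95301701, minus strand: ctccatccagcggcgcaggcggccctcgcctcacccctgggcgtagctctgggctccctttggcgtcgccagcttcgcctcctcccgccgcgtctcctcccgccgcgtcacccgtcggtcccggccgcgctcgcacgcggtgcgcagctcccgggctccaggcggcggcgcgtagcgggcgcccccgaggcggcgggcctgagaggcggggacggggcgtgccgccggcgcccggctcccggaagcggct
SLC29A1, chr6:44219365-44219614, plus strand: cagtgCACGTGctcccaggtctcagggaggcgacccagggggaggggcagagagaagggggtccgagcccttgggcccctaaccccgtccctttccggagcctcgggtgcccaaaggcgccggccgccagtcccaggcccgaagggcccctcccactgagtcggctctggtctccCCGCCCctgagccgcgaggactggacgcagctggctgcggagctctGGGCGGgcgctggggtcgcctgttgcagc
The SAMHD1 window held 1 ACGTG match, and the ABCC4 window held none of the 3 motifs. The SLC29A1 window held 2 GGGCGG matches and a CACGTG, which counts as 2 overlapping ACGTG matches, one on each strand. GGGAA was in none of the 3 windows, while 59.0% of 35116 RefSeq windows of this length held it. GGGCGG was in 42.6% and ACGTG in 18.5% of them. Among members that did not pass the test, the nearest windows of CDA and NT5C2 also held 0 GGGAA matches, and that of DCK held 2. A second RefSeq window of SLC29A1, farther from the gene start (chr6:44223345-44223594) and not printed, held 1 GGGAA and 3 GGGCGG matches. These matches describe the sequence and are not binding sites.

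Per length of the gene's exons, SLC29A1 was the most abundant member and the drug pumps ABCB1 and ABCG2 were absent or nearly so. SLC29A1 was at 55.0 ± 8.67 CPM per kb over the 6 libraries (SD), above NT5C2 (20.3 ± 3.80) in each of them, and NT5C2 was above DCK (15.4 ± 0.964) in each. DCK, CDA (15.4 ± 5.58), ABCC1 (12.4 ± 1.89) and SLC29A2 (11.8 ± 1.39) followed, and the ranges of neighbours in that order overlapped. ABCC4 (6.59 ± 1.01) and SAMHD1 (6.50 ± 2.87) came next, below SLC29A2 in every library and not separated from each other. The length is the union of all annotated exons, so genes with long unused exons read low on this scale.

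**Figure D1:**
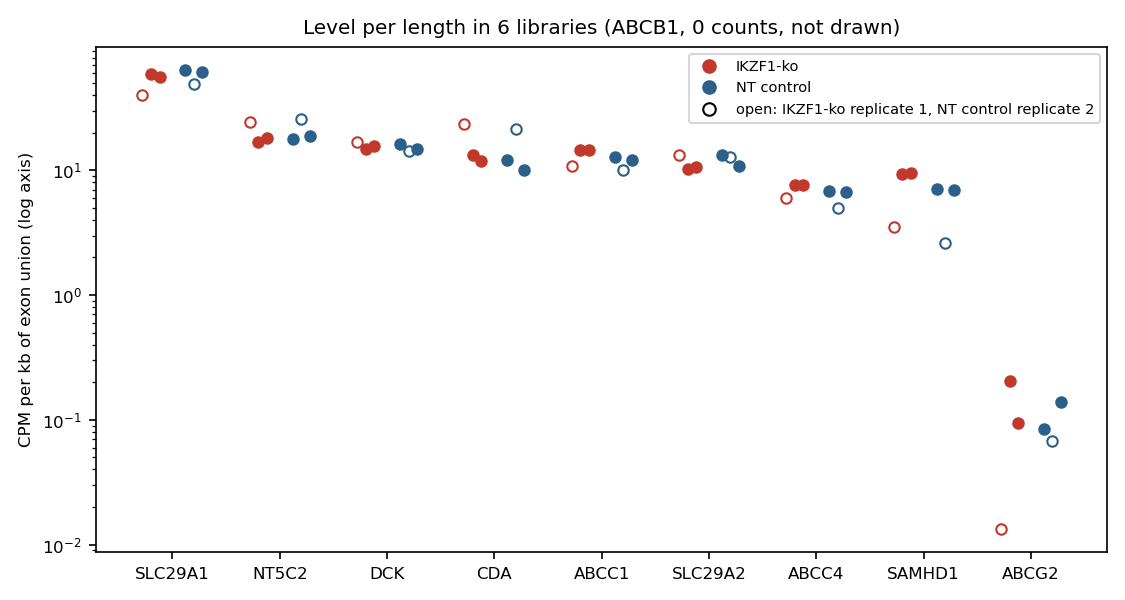
Level of 9 members as CPM per kb of annotated exon (log axis) in 3 IKZF1-ko libraries (red) and 3 NT control libraries (blue), with IKZF1-ko replicate 1 and NT control replicate 2 as open circles. SLC29A1 lies highest at 40.4 to 63.6 and ABCG2 lowest at 0.0132 to 0.205, and ABCB1, with 0 counts, is not drawn.

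The comparison asks which genes differ between the libraries labelled IKZF1-ko and those labelled NT control. SAMHD1 was the member with the largest rise, 1.34-fold, with smaller rises of the multidrug resistance proteins ABCC1 (1.14-fold) and ABCC4 (1.15-fold) and a small fall of SLC29A1 (0.887-fold). DCK, CDA, NT5C2 and SLC29A2 did not pass the test. These folds are from an edgeR quasi-likelihood fit with a library-set term (the 2 libraries apart against the other 4), in which 4 of the 8 tested members were called at a Benjamini-Hochberg adjusted p below 0.05. Of all tested genes 13.5% were called, 6.93% higher and 6.62% lower in IKZF1-ko. The median log2 fold change of the tested members was 0.109, and that of all tested genes was 0.002. The count of 4 members was 2 with DESeq2. It was also 2 without any 1 of IKZF1-ko replicates 1 and 2 and NT control replicates 2 and 3, and 1 without IKZF1-ko replicate 3 or NT control replicate 1. Shares of all genes called in these runs are not given here, so the drop cannot be read as particular to the members. With the 4 libraries alone 2 members were called, SAMHD1 and ABCC1, beside 14.7% of all genes (7.64% higher and 7.1% lower). With 1 surrogate variable in place of the set term 3 were called, SAMHD1, ABCC1 and ABCC4, beside 7.91% of all genes (4.38% higher and 3.53% lower). On group alone edgeR called 0 of the 8 members and 0 of all genes (0%), and 0 members and 456 genes (3.5%) had an unadjusted p below 0.05. DESeq2 and limma-voom on group alone also called 0 members. DESeq2 called 71 of all genes (0.545%, with 0.445% higher and 0.0998% lower), and limma-voom called 1 (0.00768%), higher in IKZF1-ko. The groups overlapped over the 6 libraries for each of the 8 members, and 9.35% of all tested genes had groups that did not overlap (5.28% higher and 4.07% lower). With only 8 members, 0 without overlap is close to that share. As RNA was measured in bulk, fewer cells with a transcript and less of it per cell cannot be told apart.

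Uptake is the first step of cytarabine handling. SLC29A1 (ENSG00000112759, chromosome 6, 44219505 to 44234151), which encodes ENT1, was at 178, 260.4 and 247 CPM in IKZF1-ko replicates 1, 2 and 3, against 280.5, 218 and 270.0 CPM in NT control replicates 1, 2 and 3. The lowest library of each group was the one apart, and within each library set every IKZF1-ko library lay below every NT control library. Group means were 228.5 ± 44.05 CPM in IKZF1-ko and 256.0 ± 33.7 CPM in NT control (SD, n = 3 each). The log2 fold change with the library-set term was -0.17 (SE 0.050, edgeR adjusted p = 0.0296). Within the 4 libraries it was -0.12 (adjusted p = 0.0716), and with the surrogate variable it was -0.11 (adjusted p = 0.23). The call was also lost without IKZF1-ko replicate 1 (adjusted p = 0.072) or 3 (0.154), or without NT control replicate 1 (0.115) or 2 (0.0713).

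SLC29A2 (ENSG00000174669, chromosome 11, 66362521 to 66372214) encodes ENT2, a second equilibrative carrier of nucleosides and nucleobases. It was at 36.1, 27.98 and 28.99 CPM in IKZF1-ko, against 36.02, 34.4 and 29.3 CPM in NT control. The groups overlapped, and with the library-set term the log2 fold change was -0.10 (95% interval -0.29 to 0.079, edgeR adjusted p = 0.481). SLC29A2 shares 279 exon bases with B4GAT1-DT on the opposite strand, which had at most 9 counts in a library.

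**Figure D2:**
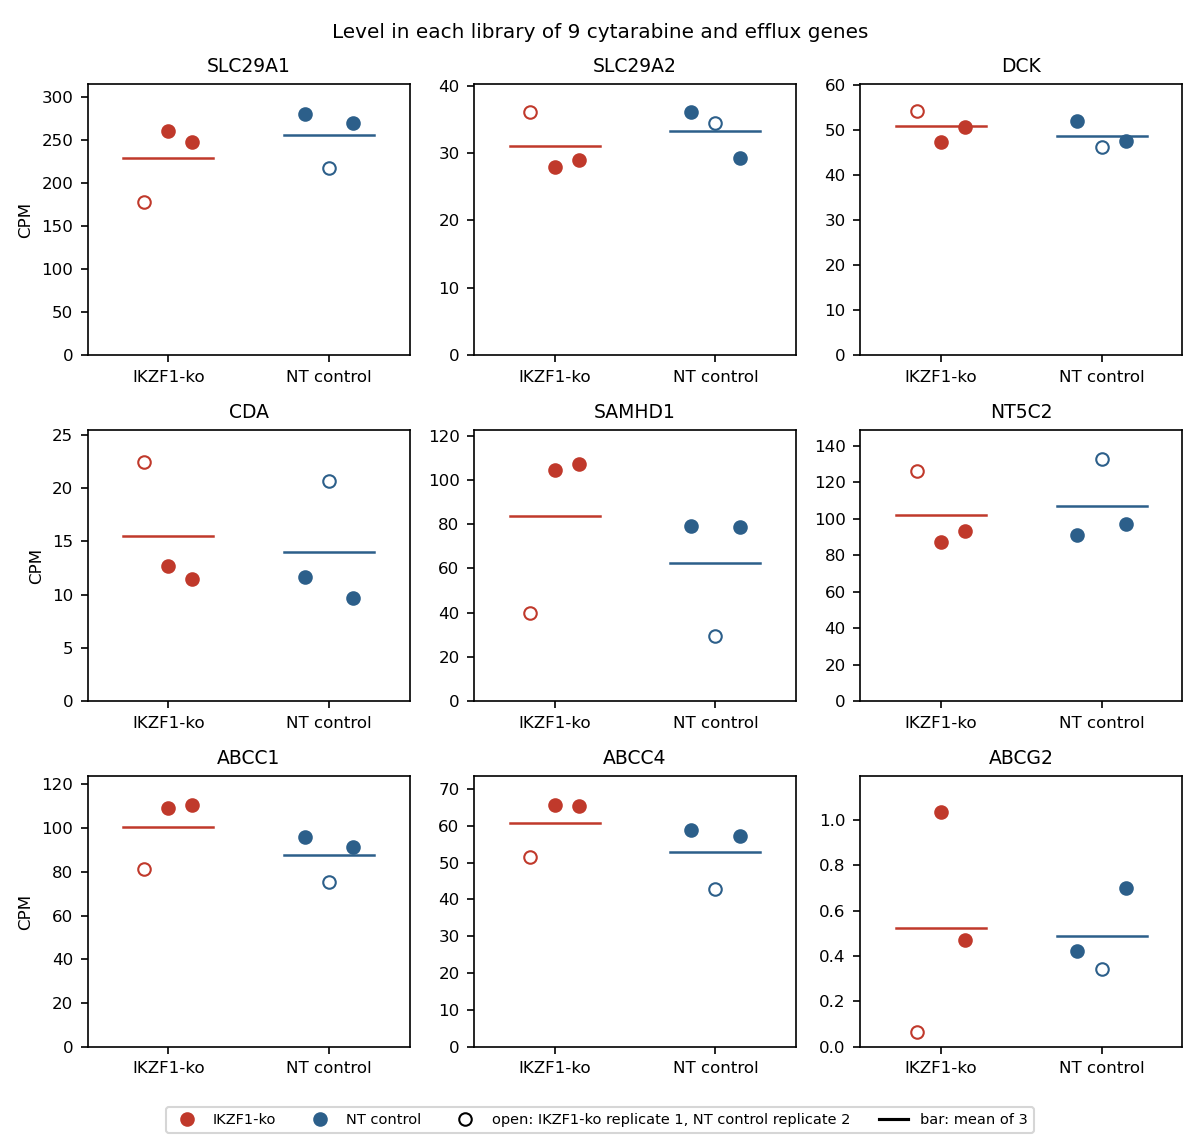
CPM of 9 members in each library, IKZF1-ko in red and NT control in blue, with the bar at the mean of 3. SAMHD1 is at 104 and 108 CPM in the filled IKZF1-ko circles, against 79.3 and 78.7 CPM in NT control, while the open circles (the libraries apart) lie at 39.8 and 29.6 CPM.

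Activation starts with DCK (ENSG00000156136, chromosome 4, 70992538 to 71030914), the kinase that adds the first phosphate to cytarabine. It was at 54.3, 47.5 and 50.8 CPM in IKZF1-ko, against 52.0, 46.3 and 47.5 CPM in NT control. This was the steadiest tested member, with group means of 50.8 ± 3.40 CPM in IKZF1-ko and 48.6 ± 2.98 CPM in NT control (SD, n = 3 each). The log2 fold change with the library-set term was 0.065 (95% interval -0.083 to 0.21, edgeR adjusted p = 0.605). The log2 difference was -0.02 between the groups in the 4 libraries and 0.23 between the libraries apart. DCK shares 199 exon bases with MOB1B on its own strand, which had 902 to 1134 counts in IKZF1-ko and 546 to 779 counts in NT control, so reads there could be split between them.

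Of the 3 members that undo cytarabine activation or inactivate it, SAMHD1 rose with the library-set term, and CDA and NT5C2 did not pass the test. SAMHD1 (ENSG00000101347, chromosome 20, 36889773 to 36951901) encodes a deoxynucleotide triphosphate hydrolase that also restricts viruses in myeloid cells. It was at 39.8, 104 and 108 CPM in IKZF1-ko, against 79.3, 29.6 and 78.7 CPM in NT control. The libraries apart were the lowest of their groups, and within each library set IKZF1-ko was above NT control. Group means were 83.9 ± 38.2 CPM in IKZF1-ko and 62.6 ± 28.6 CPM in NT control (SD, n = 3 each), a difference smaller than either SD. With the library-set term the log2 fold change was 0.42 (SE 0.055, edgeR adjusted p = 6.89e-05). It was 0.42 in the 4 libraries (adjusted p = 2.27e-06) and 0.43 between the libraries apart, where there is no test. The surrogate variable gave 0.64, a 1.56-fold rise. The call was made under each of the 14 alternatives to the fit with the set term and each of the 10 to the fit on 4 libraries. On group alone the log2 interval was -0.73 to 1.59. Its exons share 1159 bases with TLDC2 on the opposite strand, which had at most 1 count in a library.

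CDA (ENSG00000158825, chromosome 1, 20588948 to 20618908) encodes cytidine deaminase, which converts cytarabine to an inactive uracil form. It was at 22.5, 12.7 and 11.5 CPM in IKZF1-ko, against 11.7, 20.7 and 9.70 CPM in NT control. The groups overlapped, with the libraries apart highest in each, and the log2 fold change with the library-set term was 0.15 (95% interval -0.069 to 0.38, edgeR adjusted p = 0.382). NT5C2 (ENSG00000076685, chromosome 10, 103088017 to 103193306) encodes a cytosolic nucleotidase whose activating mutations are known from relapsed lymphoblastic leukemia. It was at 126, 87.1 and 93.4 CPM in IKZF1-ko, against 91.0, 133 and 97.2 CPM in NT control. Here too the libraries apart were highest, and the log2 fold change was -0.066 (95% interval -0.18 to 0.044, edgeR adjusted p = 0.452). NT5C2 shares 1892 exon bases with CNNM2 on the opposite strand, which had 178 to 326 counts in IKZF1-ko and 106 to 297 counts in NT control.

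Efflux genes divided into members that were well expressed and members that were not. ABCC1 (ENSG00000103222, chromosome 16, 15949577 to 16143074) encodes MRP1, an exporter of glutathione conjugates and anthracyclines. It was at 81.5, 109 and 111 CPM in IKZF1-ko, against 96.1, 75.5 and 91.4 CPM in NT control. Within each library set IKZF1-ko lay above NT control, and the log2 fold change with the library-set term was 0.19 (SE 0.052, edgeR adjusted p = 0.0216). In the 4 libraries it was 0.23 (adjusted p = 0.00368). The call with the set term was lost with DESeq2 (adjusted p = 0.0745), without IKZF1-ko replicate 2 (0.0573) or 3 (0.148), and without NT control replicate 1 (0.0791) or 3 (0.12). That in the 4 libraries was lost without NT control replicate 3 (0.0629).

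ABCC4 (ENSG00000125257, chromosome 13, 95019829 to 95301475) encodes MRP4, which exports cyclic nucleotides and nucleotide analogues. It was at 51.5, 65.7 and 65.5 CPM in IKZF1-ko, against 58.8, 42.8 and 57.3 CPM in NT control. As for ABCC1, the libraries apart were the lowest of their groups, and IKZF1-ko was above NT control within each set. With the library-set term the log2 fold change was 0.20 (SE 0.059, edgeR adjusted p = 0.0287), and in the 4 libraries it was 0.17 (adjusted p = 0.0611). Leaving out any 1 of the 6 libraries, or using DESeq2, ended the ABCC4 call made with the set term (adjusted p up to 0.114).

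ABCB1 (ENSG00000085563, chromosome 7, 87503633 to 87713323), which encodes P-glycoprotein, the classical multidrug pump, had 0 counts in all 6 libraries. A floor of 3 counts allows up to 0.164 to 0.200 CPM in the IKZF1-ko libraries and 0.204 to 0.262 CPM in the NT control libraries, for counting error only. ABCG2 (ENSG00000118777, chromosome 4, 88090264 to 88231322), the breast cancer resistance protein and a stem cell efflux pump, had 1, 19 and 8 counts in IKZF1-ko, against 5, 5 and 8 counts in NT control. The groups overlapped. ABCG2 passed the filter in the 4 libraries only, with a log2 fold change of 0.44 (95% interval -0.71 to 1.59, edgeR adjusted p = 0.671), and a difference was not detectable at this depth.

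**Figure D3:**
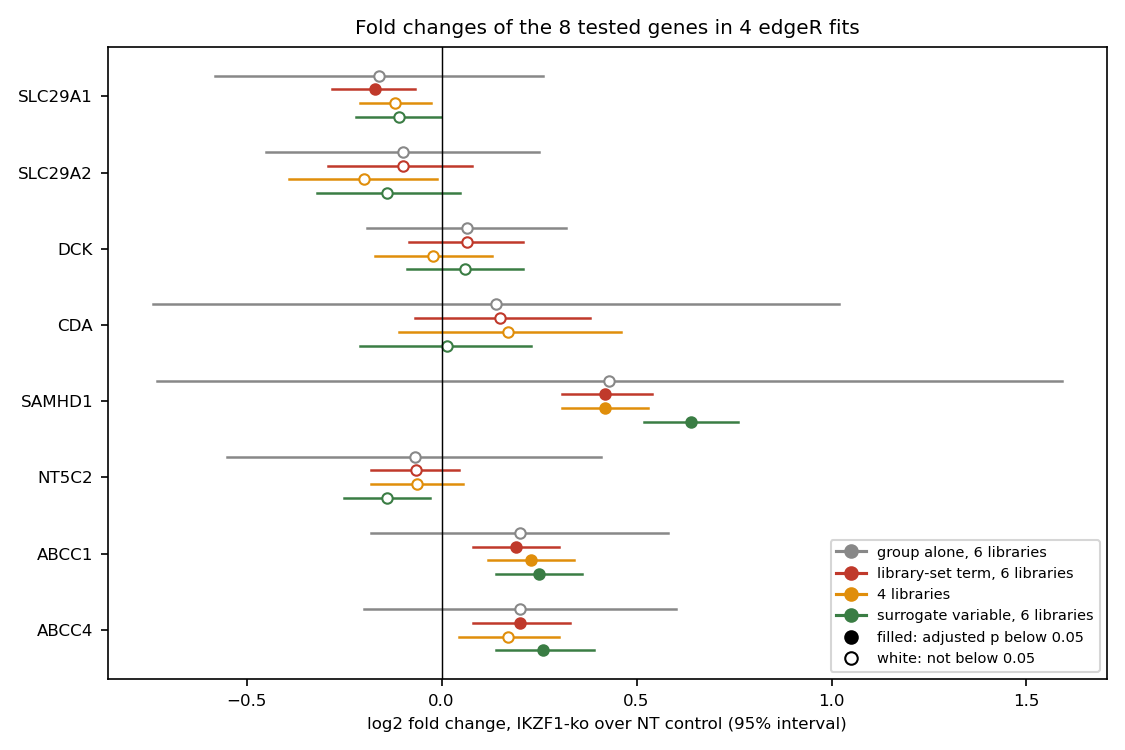
Log2 fold change, IKZF1-ko over NT control, of the 8 members tested in the 6 libraries, with 95% intervals from 4 edgeR fits and filled symbols where the adjusted p is below 0.05. SAMHD1 is filled in the fits with the library-set term (0.42), with the 4 libraries (0.42) and with the surrogate variable (0.64), and no symbol is filled on group alone.

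In the 4 libraries of the larger set the groups did not overlap for 5 of the 8 members, beside 54.6% of all tested genes (27.7% higher and 26.9% lower). Of the 5, 3 were higher (SAMHD1, ABCC1, ABCC4) and 2 lower (SLC29A1, SLC29A2) in IKZF1-ko. Depth went with group there, at 18214328 and 16751839 counts in IKZF1-ko and 11699047 and 11300519 counts in NT control. The mean log2 level of the hypoxia list also did, at -0.20 and -0.20 in IKZF1-ko and -0.40 and -0.36 in NT control. That of the proliferation list was 0.13 and 0.16 in IKZF1-ko and 0.31 and 0.34 in NT control. The part of depth or of these lists in the differences was not tested.

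For 7 of the 8 tested members, the library apart differed from the other 2 of its group by more, in both groups, than IKZF1-ko differed from NT control in the fit with the set term. SAMHD1 differed by -1.41 on the log2 scale in IKZF1-ko (replicate 1 minus the mean of replicates 2 and 3) and by -1.41 in NT control (replicate 2 minus the mean of replicates 1 and 3). CDA was higher there, by 0.89 in IKZF1-ko and 0.95 in NT control, and NT5C2 by 0.48 and 0.50 in the same order. SLC29A1 (-0.51 in IKZF1-ko, -0.34 in NT control), ABCC1 (-0.43, -0.31) and ABCC4 (-0.35, -0.44) were lower in the libraries apart. DCK differed by 0.14 in IKZF1-ko and -0.10 in NT control. The exception was SLC29A2, at 0.34 and 0.08. These are descriptions without a test. For the tested members other than DCK, the libraries apart differed in the same direction in both groups, as the hypoxia and proliferation lists did, and the part of those lists was not tested.

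**Figure D4:**
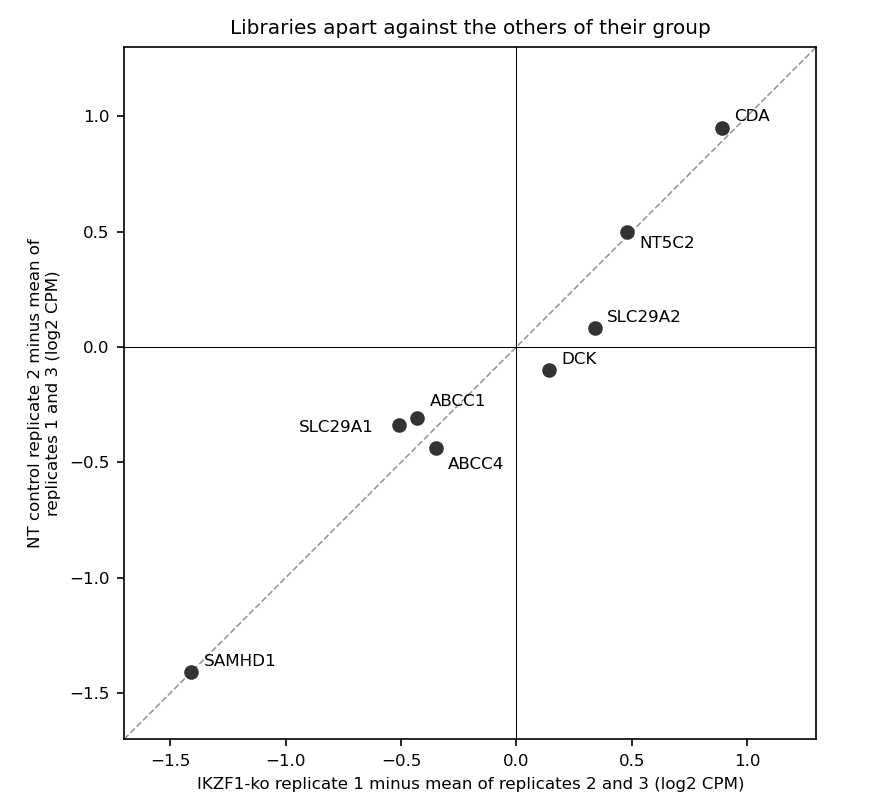
Log2 CPM of IKZF1-ko replicate 1 minus the mean of replicates 2 and 3 (x axis) and of NT control replicate 2 minus the mean of replicates 1 and 3 (y axis) for the 8 tested members, with the line of equality dashed. SAMHD1 lies at -1.41 on both axes and CDA at 0.89 and 0.95.

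Genes with the most similar pattern over the 6 libraries were looked up for the 3 members with the lowest p in the fit with the set term, among 10145 genes with a mean of at least 5 CPM. Likeness was the root mean square difference of log2 CPM centred on each gene's mean. Nearest to SAMHD1 were the cyclin D3 gene CCND3 (0.13), the mitochondrial nuclease gene EXOG (0.20) and the endocytic recycling gene EHD4 (0.20). Among the nearest to ABCC1 were the amino acid transaminase gene BCAT1 (0.033) and the AMP-activated kinase subunit gene PRKAG1 (0.033). The ubiquitin ligase gene VHL (0.023), PSD3 (0.034) and KCTD3 (0.037) were nearest to ABCC4. Among so many genes over 6 libraries, some near match can be found for most genes. Distances depend on each gene's own spread and are not comparable between members. The matches describe the pattern, and shared regulation was not tested.

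Other uptake carriers were taken from a list of 10 genes, of which 7 were tested. With the library-set term 1 rose and 2 fell, beside 13.5% of all tested genes called in either direction. Within the 4 libraries 1 rose and 1 fell (beside 14.7% of all genes), and with the surrogate variable 1 rose and 0 fell (beside 7.91%). The gene that rose was SLC28A3 (ENSG00000197506, chromosome 9, 84275457 to 84340683), which encodes the concentrative nucleoside transporter CNT3, a sodium-coupled carrier of pyrimidine and purine nucleosides. SLC28A3 was at 66.1, 37.6 and 38.1 CPM in IKZF1-ko, against 21.3, 31.9 and 20.4 CPM in NT control. The groups did not overlap, which held for 9.35% of all tested genes, and the libraries apart were the highest of their groups. Means were 47.3 ± 16.3 CPM in IKZF1-ko and 24.5 ± 6.42 CPM in NT control (SD, n = 3 each), and the log2 fold change was 0.94 (SE 0.074, edgeR adjusted p = 3.2e-07) with the library-set term, 0.86 in the 4 libraries and 0.83 with the surrogate variable. SLC28A3 was called under each of the 14 and 10 alternatives to the fits with the set term and on 4 libraries. On group alone it was not called (edgeR adjusted p = 0.972), nor under any of 13 alternatives to that fit. The family members SLC28A1 and SLC28A2 had 0 counts in all libraries. SLC22A4, an organic cation carrier gene, averaged 9.96 ± 2.86 CPM in IKZF1-ko and 13.5 ± 5.05 CPM in NT control (log2 fold change -0.43, edgeR adjusted p = 0.022), and its call was made under 9 of 14 alternatives, lost with DESeq2, the surrogate variable (adjusted p = 0.172), or without IKZF1-ko replicate 2 or 3 or NT control replicate 1 (adjusted p up to 0.165). SLC29A1 was the other gene that fell. The list's median log2 fold change was -0.084, against 0.002 over all tested genes.

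Downstream kinases make the diphosphate and triphosphate of cytarabine or phosphorylate related nucleosides. Of 15 nucleoside and nucleotide kinase genes tested, 0 rose and 2 fell in the edgeR fit with the set term, close to the 13.5% called over all genes. The 4 libraries (beside 14.7% of all genes) and the surrogate variable (beside 7.91%) each gave 0 that rose and 1 that fell, NME1. NME1, a nucleoside diphosphate kinase gene that makes triphosphates, was at 20.5, 39.9 and 38.2 CPM in IKZF1-ko, against 51.9, 29.7 and 52.9 CPM in NT control. Its log2 fold change was -0.46 (SE 0.068, edgeR adjusted p = 0.000275), and it fell under each alternative to that fit, but it shares 638 exon bases with the readthrough gene NME1-NME2 on its strand. The mitochondrial deoxyguanosine kinase gene DGUOK averaged 44.3 ± 4.02 CPM in IKZF1-ko and 52.3 ± 3.42 CPM in NT control (log2 fold change -0.24, edgeR adjusted p = 0.0334). The DGUOK call was lost in the 4 libraries (adjusted p = 0.131) and with the surrogate variable (0.0687), and also with DESeq2 and without IKZF1-ko replicate 1 or 3 or NT control replicate 1 or 2 (adjusted p up to 0.171).

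Among 15 deaminase, phosphatase and nucleotidase genes, 12 were tested, and 2 rose and 1 fell in the fit with the set term, beside 13.5% called over all genes. Within the 4 libraries 2 rose and 3 fell (beside 14.7%), where the additional genes were DUT, the dUTP pyrophosphatase gene (log2 fold change -0.17, edgeR adjusted p = 0.0307), and PNP, the purine nucleoside phosphorylase gene (-0.15, adjusted p = 0.0257). With the surrogate variable 1 rose, SAMHD1, and 1 fell, DCTPP1 (beside 7.91%). NT5C3A, a pyrimidine nucleotidase gene, also rose, averaging 34.9 ± 4.13 CPM in IKZF1-ko and 29.4 ± 5.43 CPM in NT control (log2 fold change 0.25, edgeR adjusted p = 0.0401). That call was lost with DESeq2, the surrogate variable (adjusted p = 0.145), or without IKZF1-ko replicate 2 or 3 or NT control replicate 1 (adjusted p up to 0.225). DCTPP1 encodes a pyrophosphatase of deoxycytidine triphosphate and its analogues. It was at 28.5, 61.4 and 62.5 CPM in IKZF1-ko, against 79.7, 44.2 and 78.2 CPM in NT control. The log2 fold change was -0.43 (SE 0.065, edgeR adjusted p = 0.000314), and the call held under each alternative to that fit. DCTPP1 shares 666 exon bases with ZNF771 on the opposite strand.

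Genes of deoxynucleotide supply made up a list of 11, of which 10 were tested, 0 rose and 3 fell with the set term, beside 13.5% called over all genes. Within the 4 libraries 0 rose and 4 fell (beside 14.7%), RRM2, a ribonucleotide reductase subunit gene, in addition (log2 fold change -0.19, edgeR adjusted p = 0.00208). With the surrogate variable 0 of 10 were called (beside 7.91%). CTPS1, the CTP synthase gene of proliferating lymphoid cells, was at 36.2, 99.6 and 103 CPM in IKZF1-ko, against 122, 45.5 and 126 CPM in NT control (log2 fold change -0.30, edgeR adjusted p = 0.000895). RRM2B, a p53-inducible ribonucleotide reductase subunit gene (-0.23, adjusted p = 0.0253), and the thymidylate synthase gene TYMS (-0.18, adjusted p = 0.0176) also fell. With the surrogate variable the log2 fold changes were -0.078 for CTPS1, -0.13 for RRM2B and -0.03 for TYMS. Between the libraries apart, where there is no test, the log2 difference was -0.33 for CTPS1 and -0.1 for TYMS. It was 0.01 for RRM2B and 0.1 for RRM2, so these were not lower in IKZF1-ko there. The CTPS1 call was made under 13 of 14 alternatives, and those of RRM2B and TYMS under 9 of 14 each. Both were lost with the surrogate variable and without IKZF1-ko replicate 2 or 3 or NT control replicate 1 or 3, with an adjusted p up to 0.139 for RRM2B and 0.121 for TYMS when 1 of those libraries was left out. Beside this list, 4 of 12 proliferation genes fell and 0 rose with the set term, while 6.62% of all genes fell. In the 4 libraries 8 fell and 0 rose (7.1% of all genes fell), and with the surrogate variable 1 fell and 0 rose (3.53%). The mean log2 level of the proliferation genes was -0.52, 0.13 and 0.16 in IKZF1-ko, against 0.31, -0.43 and 0.34 in NT control. Of 13 tested hypoxia and glycolysis genes, 4 rose and 0 fell with the set term, while 6.93% of all genes rose. In the 4 libraries 3 of 12 tested rose and 0 fell (7.64% of all genes rose), and with the surrogate variable 1 rose and 0 fell (4.38%). The part of proliferation or of the hypoxia list in these values was not tested. Opposite-strand genes share exon bases with TYMS (1150 bases, ENOSF1 and TYMSOS), SLC22A4 (235 bases, MIR3936HG) and DGUOK (62 bases, DGUOK-AS1), which makes their counts uncertain there. The same goes for LYZ (599 bases), DUT (533 bases, DUT-AS1), PNP (492 bases) and APEX1 (54 bases, PIP4P1). RRM2 shares 1077 bases with AC007240.1 on its own strand. SLC28A3 shares 126 bases with SLC28A3-AS1, which had 0 counts in all 6 libraries. Of 10 genes of replicative polymerases and DNA repair enzymes, 9 were tested. With the set term 0 were called (beside 13.5% of all genes), and with the surrogate variable 0 (beside 7.91%). In the 4 libraries 1 was called (beside 14.7%), APEX1, a base excision repair endonuclease gene (log2 fold change 0.14, edgeR adjusted p = 0.0277). The most abundant were APEX1 (368 ± 11.7 CPM in IKZF1-ko, 355 ± 36.3 CPM in NT control) and POLE (202 ± 51.3 CPM in IKZF1-ko, 209 ± 51.0 CPM in NT control).

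Outside the 4 member pumps, the set term called 1 of 5 tested ABCA genes, 1 of 5 tested ABCB genes and no other ABCC gene. Both were lower in IKZF1-ko, beside 13.5% of all genes called and 6.62% lower. The surrogate variable called 1 more, ABCA7, a lipid transporter gene (log2 fold change -0.43, edgeR adjusted p = 0.0356), beside 7.91% of all genes. Of 5 ABCA genes 1 fell, ABCA2, an endolysosomal transporter gene, at 137 ± 17.6 CPM in IKZF1-ko and 164 ± 17.3 CPM in NT control (log2 fold change -0.26, edgeR adjusted p = 0.00174). Of 9 ABCB genes 5 were tested and 1 fell, ABCB10, which encodes a mitochondrial inner membrane transporter needed for heme synthesis in red cell precursors. ABCB10 (ENSG00000135776, chromosome 1, 229516582 to 229558695) was at 129, 163 and 173 CPM in IKZF1-ko, against 233, 190.4 and 251 CPM in NT control. The groups did not overlap, which held for 9.35% of all tested genes, and the log2 fold change was -0.54 (SE 0.049, edgeR adjusted p = 1.57e-06). ABCB10 was called under each alternative to the fits with the set term and on 4 libraries. On group alone it was not called (edgeR adjusted p = 0.933), nor under any of 13 alternatives to that fit. Of 11 ABCC genes 6 were tested, and the only ones called with the set term were the members ABCC1 and ABCC4. Both were higher in IKZF1-ko, beside 6.93% of all genes. In the 4 libraries 1 ABCC gene was called, ABCC1, beside 7.64% of all genes higher, and ABCC4 was not (edgeR adjusted p = 0.0611). Of the 3 ABCG genes 0 were tested in the 6 libraries, with ABCG2 at 0.525 ± 0.487 CPM in IKZF1-ko and 0.488 ± 0.188 CPM in NT control, and ABCG1 with 3, 2 and 1 counts in IKZF1-ko, against 0, 0 and 2 counts in NT control.

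**Figure D5:**
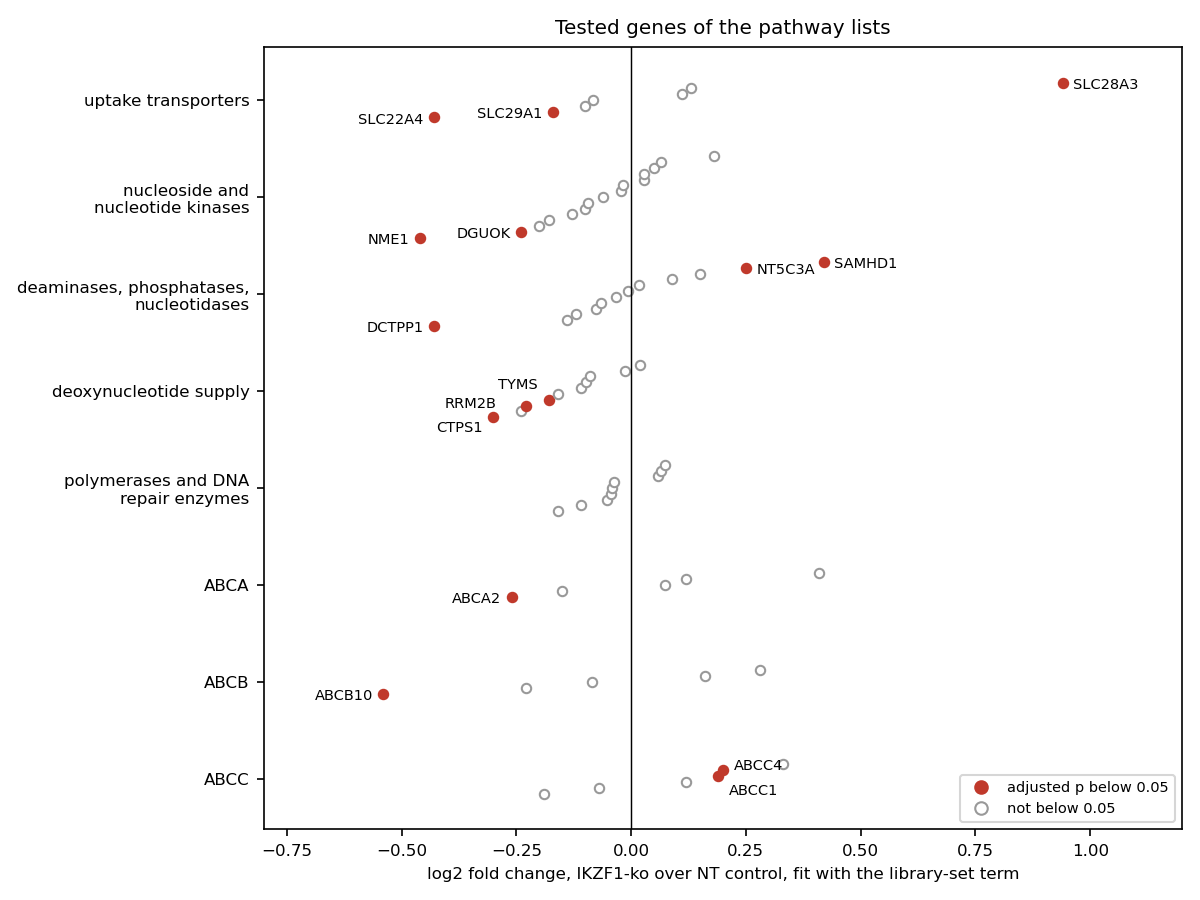
Log2 fold change, IKZF1-ko over NT control, from edgeR with the library-set term, for each tested gene of 8 pathway lists, with genes at an adjusted p below 0.05 in red and named. SLC28A3 lies highest at 0.94 and ABCB10 lowest at -0.54.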

How the data were processed

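Messenger RNA from OCI-AML2 cells was sequenced from stranded libraries, per the labels' protocols. The authors deposited 1 column of raw read counts per library, with 0 columns of other samples. Per the submitters' processing notes, Trimmomatic, STAR and GRCh38 were used. Which read counter, strand setting and gene annotation made the counts is not given in the sources used here. Genes that share exon bases are therefore uncertain. Of the 58233 identifiers, 57895 were in GENCODE release 29, which gave positions and exon lengths, and the gene name table held a symbol for 57392. Promoter windows are from RefSeq on GRCh38.p14.

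Columns were mapped by library name and samples grouped by title. The members, gene lists and tests were chosen with earlier results of these data known. The filterByExpr function of edgeR kept 13028 genes (12951 in the 4 libraries), with 99.9% of counts in the 6 libraries, and log2 CPM was computed on TMM-scaled libraries with 2 as prior count. Genes were tested in R 4.3.3 with edgeR 4.0.16 (quasi-likelihood), two-sided, adjusted over all tested genes, on group alone, with a library-set term from the sign of the first principal component, and on the 4 libraries of the larger set. Because the sets come from the counts tested, p-values with that term ignore any doubt about them. Each standard error is the absolute log2 fold change over the root of its F statistic.

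Named genes are all 10 members, IKZF1, each pathway list gene called with the set term or else the 2 most abundant, the 2 most abundant of other lists, and the nearest patterns of 3 members, of which some are not reported here. SLC28A1, SLC28A2, CD34, ITGAM, KIT, LYZ, DUT, PNP, RRM2 and ABCA7 were named after their values were seen. Alternatives were RLE and library-size scaling, other filters, DESeq2 1.42.0, limma-voom (limma 3.58.1), a replicate block, a surrogate variable from sva 3.50.0, and each library left out. For pathway list genes they were added after the values were seen. The tests were checked on simulated counts. Figures were drawn with matplotlib 3.10.9.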

Additional observations from a re-analysis of the deposited data

How the results depend on the processing

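The count of 4 members called with the library-set term was unchanged by RLE or library-size scaling, by either other filter, by limma-voom and by the replicate block. It was 2 with DESeq2 and 1 to 2 when 1 library was left out, and 3 with the surrogate variable. Leaving out either library apart makes that fit rest on the 4 libraries. The count of 2 in the 4 libraries became 2 to 3 when 1 was left out. On group alone it was 0 under every alternative run. For DESeq2 with the set term and for the left-out libraries, shares of all genes called are not given here. Those changes in count therefore cannot be read as particular to the members. The replicate block gave 0 members on group alone and 4 with the set term, and the numbers did not pair the libraries (correlations of same-numbered libraries -0.66, -0.69 and 0.59). Directions reversed only for changes that did not pass the test, when 1 library was left out. On group alone CDA ran from -0.221 (without IKZF1-ko replicate 1) to 0.536, with -0.062 without NT control replicate 3. CTPS1 ran from -0.638 (without NT control replicate 2) to 0.052 and TYMS from -0.455 to 0.057 (both highest without IKZF1-ko replicate 1). NT5C2 ran from -0.247 to 0.118 (without NT control replicate 2), with 0.034 without IKZF1-ko replicate 2. With the set term DCK ran from -0.02 (without either library apart) to 0.128, and SLC29A2 from -0.199 to 0.011 (without NT control replicate 1). In the 4 libraries DCK ran from -0.083 to 0.046, and was 0.029 without IKZF1-ko replicate 2 and 0.046 without NT control replicate 1. The cause was not tested. Depth limits ABCB1 and ABCG2, at 0 to 19 counts a library.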
